A study of Homo sapiens with 16 samples.

Results

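The minichromosome maintenance (MCM) genes were followed in the human colorectal carcinoma line HCT116, an established cell line, engineered with a doxycycline-inducible short hairpin RNA against NAA40 or a scramble (SCR) hairpin. The 10 genes MCM2, MCM3, MCM4, MCM5, MCM6, MCM7, MCM8, MCM9, MCM10 and MCMBP were taken by name from the 33937 genes of the count matrix, and all 10 passed the filter on low counts in every comparison. NAA40 is the N-terminal acetyltransferase of histones H2A and H4, and the study asked what its loss does to gene expression. RNA was sequenced in 16 libraries, 4 for each of 4 groups, which are SCR without doxycycline (SCR (−dox)), SCR with doxycycline (SCR (+dox)), the NAA40 knockdown line without doxycycline (NAA40-KD (−dox)) and the same line with doxycycline (NAA40-KD (+dox)). Doxycycline was given at 1 μg/ml, and the labels give 96 h of culture for cells with and without it. Each group is a stably transduced population of 1 cell line, so the NAA40-KD and SCR cells differ in the line as well as in the hairpin. All 16 libraries come from the same parental carcinoma cells, and nothing in the labels says whether libraries of a group came from separate cultures, so the p-values measure only the spread between these libraries.

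MCM2 to MCM7 are the subunits of the ring-shaped hexamer that is loaded onto DNA at replication origins in G1 phase and unwinds the helix in S phase. MCM10 takes part in the activation of the loaded hexamer, MCMBP binds MCM proteins outside chromatin and aids the assembly of the hexamer, and MCM8 and MCM9 form a separate helicase used in homologous recombination. Transcription of the hexamer genes is known to be driven by the E2F family at the transition from G1 to S phase, and proliferating colon carcinoma cells make these transcripts in abundance.

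Because E2F factors are the known regulators of these genes, the promoter sequences that hold E2F-like letters are shown first. Windows of 300 bases, from 250 bases before to 50 bases after an annotated start, were found in the RefSeq table (GRCh38.p14) for 8 of the 10 genes. The letters TTTCCCGC, TTTCGCGC, TTTGCCGC and TTTGGCGC were searched on both strands, and 6 of the 8 genes held at least 1 of them, in 6 of their 11 windows. Of all 35116 windows of this length in the table, 3.31% held such letters. That share was not matched for the GC content of the MCM windows, which is 48.7% to 75.7%. The stretches of 30 bases below run 5′ to 3′ on the strand of the gene, with the matched letters in capitals.
MCM2, chr3:127598404-127598433, plus strand: tgaaccactTTTCGCGCGAAAcctggttgt
MCM3, chr6:52284898-52284927, minus strand: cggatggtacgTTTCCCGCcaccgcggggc
MCM3, chr6:52284728-52284757, minus strand: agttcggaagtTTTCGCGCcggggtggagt
MCM6, chr2:135876575-135876604, minus strand: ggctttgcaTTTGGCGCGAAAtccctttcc
MCM6, chr2:135876513-135876542, minus strand: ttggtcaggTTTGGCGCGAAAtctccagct
MCM7, chr7:100101566-100101595, minus strand: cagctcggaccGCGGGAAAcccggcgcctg
MCM7, chr7:100101388-100101417, minus strand: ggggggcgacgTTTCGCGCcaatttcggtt
MCM8, chr20:5950667-5950696, plus strand: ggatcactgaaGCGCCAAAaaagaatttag
MCMBP, chr10:119872834-119872863, minus strand: ggcggcggctaTTTCCCGCcattgtgcgaa

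In MCM2 and in both MCM6 stretches the letters are found on both strands and overlap, so that the capitals form a palindrome in MCM2 and nearly one in MCM6. Counted from the start of the window's own transcript, the MCM6 matches begin at −152 and −90, those of MCM3 at −174 and −4, those of MCM7 at −187 and −9, that of MCMBP at −9, and those of MCM2 and MCM8 at 3 and 27. No such letters were found in the windows of MCM9 and MCM10. CCAAT, on either strand, was found in 6 of the 8 genes (MCM3, MCM6, MCM7, MCM8, MCM9 and MCM10), in 8 of the 11 MCM windows, against 34.6% of all windows. TTTGAA, the letters of the CHR element of many mitotic promoters, was found in none of the 11 MCM windows against 15.2% of all. These shares of all windows were not matched for GC content either. These matches describe letters in a window and no binding was measured.

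The targeted gene came first. In NAA40-KD (−dox), NAA40 stood at 12.6, 11.6, 9.27 and 13.8 CPM (counts scaled to the library size, with TMM factors), while 34.5, 25.9, 29.1 and 28.2 CPM were found in SCR (−dox), which puts the knockdown at 40.2% of the SCR mean (exact permutation test, two-sided, p = 0.0286, the smallest that 4 against 4 can give). In NAA40-KD (+dox) its levels were 31.5, 29.3, 28.7 and 31.9 CPM against 26.0, 28.4, 26.2 and 28.8 CPM in SCR (+dox), or 111% of the SCR mean (exact permutation p = 0.0571). NAA40 was therefore low in the knockdown libraries labelled as not treated and not in those labelled as treated. The titles of the NAA40-KD (−dox) libraries name no doxycycline. Their count columns are named KD-wDox, which can be read as with or without it. Whether the labels were exchanged was not tested. All groups are called by their labels below, and no direction of doxycycline is drawn from them.

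Library totals ran from 11065606 to 13855486 counts. The fourth library labelled NAA40-KD (−dox) stood apart from all others over the whole transcriptome. Relative to the mean of the other libraries of its group, its genes with under 45% GC in the longest transcript had a median log2 deviation of −0.95 (5210 genes) and those with over 55% GC one of 0.97 (4402 genes). This difference of 1.92 compares with −0.36 to 0.43 in the libraries of the other groups. Replicates 1 to 3 of NAA40-KD (−dox), which were set against a mean that includes the fourth library, had −0.69 to −0.60. Of the counts of the fourth library 5.03% were mitochondrial, the lowest share of a range reaching 14.3%. Values of the −dox knockdown are therefore also given without this library. Epithelial markers were high in all 16 libraries (summed EPCAM, KRT8, KRT18, KRT19 and CDH1 of 3691 to 10478 CPM by library size alone), while summed leukocyte and endothelial markers reached at most 1.11 and 2.81 CPM. Fibroblast markers summed to 58.5 to 186 CPM, nearly all of it COL1A1, with COL1A2, DCN and LUM at or near 0.

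Among −dox libraries, where NAA40 was low in the knockdown, MCM3, MCM4, MCM6 and MCM10 fell in NAA40-KD relative to SCR (edgeR quasi-likelihood test, adjusted p under 0.05 over 13903 genes), which is 4 of 10 against 3.54% of all genes tested that fell. Of these, MCM3, MCM4 and MCM10 changed by more than 1 on the log2 scale, against 1.85% of all genes that fell that far. The log2 fold changes ran from −1.57 for MCM10 to 0.05 for MCM9, with a median of −0.78 for the 10 genes and of 0.04 for all genes tested. When the fourth NAA40-KD (−dox) library was left out, 9 of the 10 genes fell, all but MCM9, against 19.4% of all genes that then fell. Left out 1 at a time, the libraries gave 3 (without the first SCR (−dox) library) to 9 MCM genes past the threshold. Over all genes these counts ran from 226 to 5021. In the fourth SCR (−dox) library all 10 genes stood above the mean of replicates 1 to 3, by 0.14 to 0.54 on the log2 scale. Without that library the log2 fold changes of MCM10, MCM3, MCM4 and MCM6 were −1.46, −1.30, −1.27 and −0.70. In the groups as deposited, 6 of the 10 genes had no overlap between the groups and were lower in NAA40-KD (−dox), against 11.9% of all genes. In this bulk RNA, fewer cells that make a transcript and less of it per cell cannot be told apart.

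**Figure D1:**
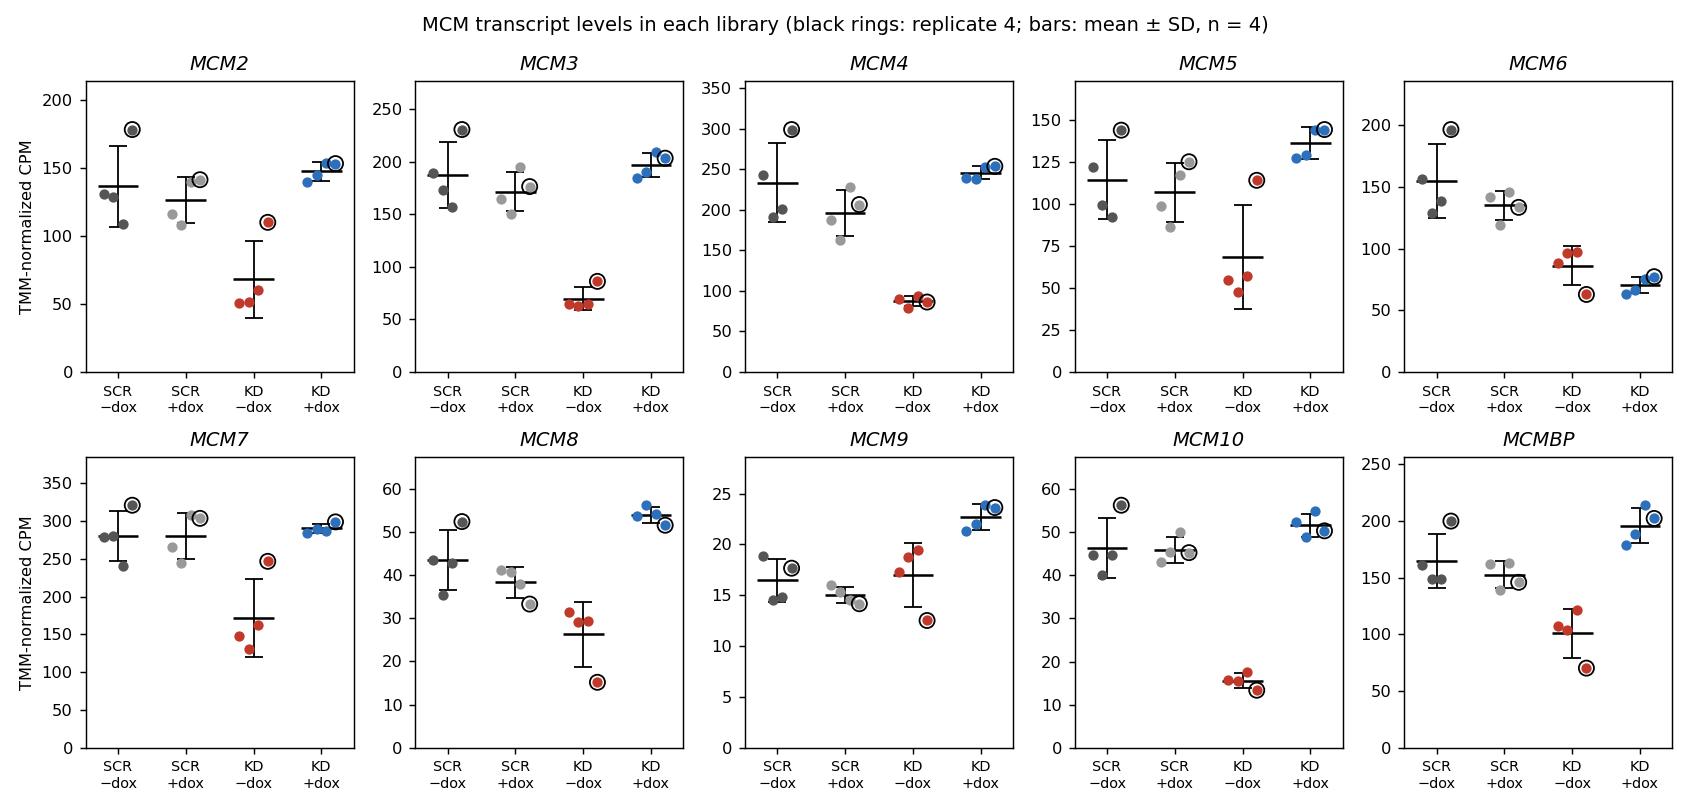
TMM-normalized CPM of each MCM gene in each of the 16 libraries (points), by group on the horizontal axis, with bars for mean ± SD (n = 4) and black rings for replicate 4 of each group. In NAA40-KD (−dox) the ringed library lies above the other 3 for MCM2, MCM3, MCM5 and MCM7 and below them for MCM6, MCM8, MCM9, MCM10 and MCMBP, and MCM6 is low in both NAA40-KD groups.

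Within the hexamer, MCM4 (ENSG00000104738) varied least among the NAA40-KD (−dox) libraries when the fourth was included. Over replicates 1 to 3 it was MCM3 that varied least, with an SD of 1.05 CPM around a mean of 64.2 CPM. MCM4 then had an SD of 7.36 CPM around 87.5 CPM. MCM4 was measured at 89.8, 79.3, 93.5 and 86.2 CPM in NAA40-KD (−dox) and at 243, 190.4, 201 and 299 CPM in SCR (−dox). The groups did not overlap, and the fall was 2.67-fold (log2 fold change −1.41, SE 0.18, adjusted p = 0.00373 by edgeR, and −1.42 without replicate 4). In the libraries labelled +dox the knockdown stood at 239, 238, 253 and 253 CPM and SCR at 187, 163, 228 and 206 CPM. There MCM4 rose, by 0.32 on the log2 scale (SE 0.10, edgeR adjusted p = 0.0203).

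MCM3 (ENSG00000112118, chr6:52264009-52284881, minus strand), whose product pairs with MCM5 in the ring, was measured at 65.1, 63.1, 64.6 and 86.3 CPM in NAA40-KD (−dox) and at 189.7, 173, 157 and 231 CPM in SCR (−dox). All 4 knockdown libraries lay below all 4 SCR libraries, with replicate 4 the highest of the knockdown. Its log2 fold change was −1.42 (SE 0.18, edgeR adjusted p = 0.00412), a 2.67-fold fall, and −1.55 without replicate 4. The +dox libraries held 184, 190.0, 209.9 and 204 CPM in the knockdown and 165, 151, 195 and 176 CPM in SCR, and the groups overlapped (log2 fold change 0.20, SE 0.09, edgeR adjusted p = 0.122).

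MCM2 (ENSG00000073111, chr3:127598223-127622436, plus strand), a subunit that also holds histones at the fork, depended on the fourth library. NAA40-KD (−dox) held 51.1, 51.6, 60.5 and 110.2 CPM and SCR (−dox) 131, 129, 109 and 178 CPM. Replicate 4 reached into the SCR range while replicates 1 to 3 lay at or below 60.5 CPM. With all libraries the log2 fold change was −0.99 (SE 0.28, edgeR adjusted p = 0.0692). Without that library MCM2 fell by 1.34 on the log2 scale (edgeR adjusted p = 1.18e-05). In +dox the knockdown stood at 139.5, 145, 154 and 153 CPM and SCR at 117, 108, 140.1 and 142 CPM (log2 fold change 0.22, SE 0.10, edgeR adjusted p = 0.0978).

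MCM5 (ENSG00000100297, chr22:35400063-35425430, plus strand) behaved in the same manner across the −dox libraries. Its levels were 54.7, 47.8, 57.2 and 114 CPM in NAA40-KD (−dox) and 122, 99.3, 92.0 and 144 CPM in SCR (−dox). Only replicate 4 of the knockdown overlapped SCR, and the log2 fold change of −0.73 (SE 0.29) had an edgeR adjusted p of 0.172. Without replicate 4 it fell by 1.11 on the log2 scale (edgeR adjusted p = 4.51e-05). In +dox, where the knockdown stood at 127, 129, 144 and 144 CPM and SCR at 99.0, 86.0, 117 and 125 CPM, MCM5 rose by 0.35 on the log2 scale (SE 0.11, edgeR adjusted p = 0.0235).

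MCM7 (ENSG00000166508, chr7:100092728-100101940, minus strand), the most abundant of the 10 transcripts, gave 148, 130.2, 162 and 247 CPM in NAA40-KD (−dox) and 279, 280.0, 240.1 and 321 CPM in SCR (−dox). The fourth knockdown library again lay inside the SCR range. The log2 fold change was −0.69 (SE 0.22, edgeR adjusted p = 0.0872), and without replicate 4 MCM7 fell by 0.94 (edgeR adjusted p = 9.49e-06). The +dox groups, at 285 to 299 CPM and 244 to 309 CPM, overlapped fully (log2 fold change 0.05, 95% interval −0.14 to 0.23). MIR25, MIR93 and MIR106B lie in introns of MCM7 on the same strand, and their own rows held 0 to 16 counts per library.

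MCM6 (ENSG00000076003, chr2:135839626-135876426, minus strand) was the exception among the subunits. NAA40-KD (−dox) gave 88.3, 96.5, 97.1 and 62.8 CPM against 157, 129, 138 and 196 CPM in SCR (−dox), and NAA40-KD (+dox) gave 63.3, 66.8, 75.2 and 77.2 CPM against 142, 119, 145 and 133 CPM in SCR (+dox). MCM6 was below SCR in every knockdown library, whichever label it carried. It fell by 0.84 on the log2 scale among −dox libraries (SE 0.19, edgeR adjusted p = 0.0356, and 0.0658 to 0.112 when any library but the fourth of NAA40-KD was left out, without which it fell by 0.73) and by 0.93 among +dox libraries (SE 0.09, edgeR adjusted p = 1.79e-06). In the latter comparison it was the 1 MCM gene that fell, and a fold change as low or lower was found in 2.24% of all genes tested. The difference between these 2 fold changes was 0.09 (95% interval −0.37 to 0.55, edgeR adjusted p = 0.842). Between the knockdown groups MCM6 had a log2 fold change of −0.29 for +dox against −dox (SE 0.16, edgeR adjusted p = 0.282), and without replicate 4 it fell by 0.41 (edgeR adjusted p = 1.74e-05), the direction opposite to the other subunits.

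**Figure D2:**
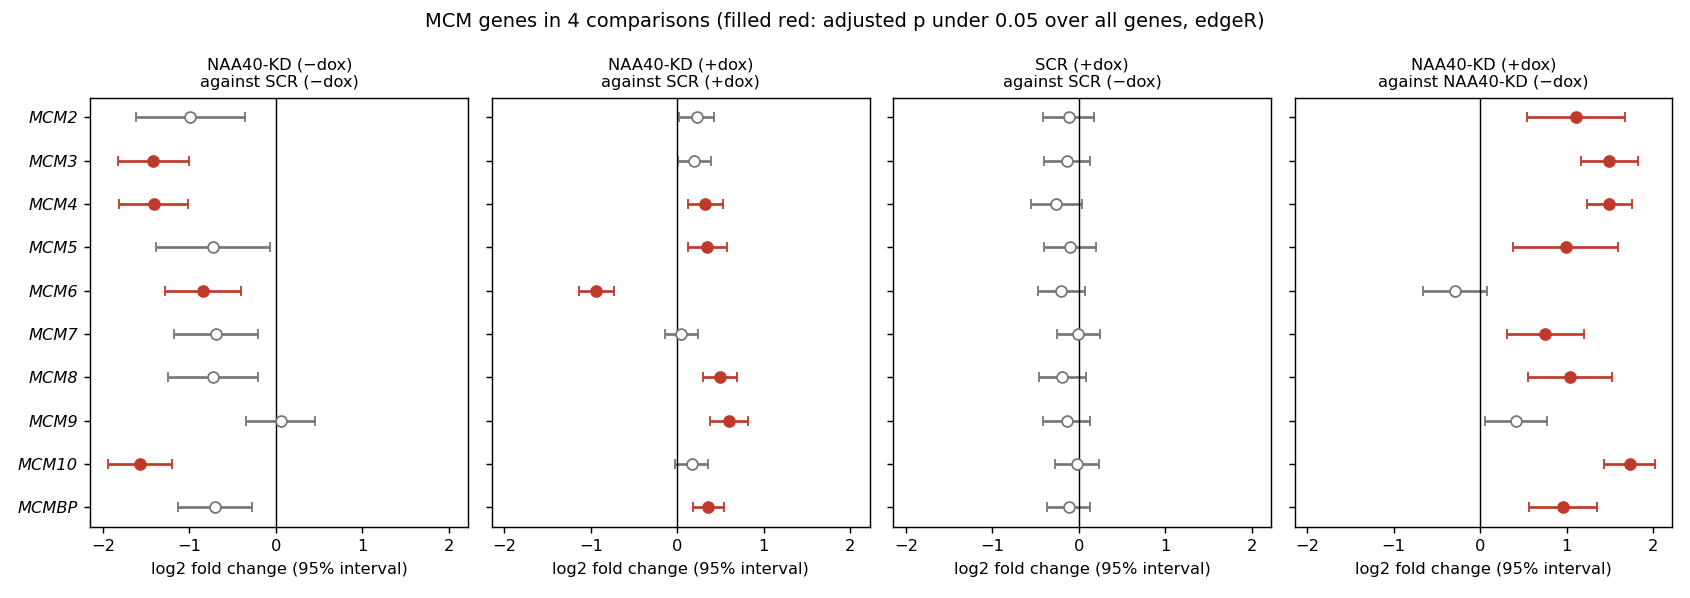
log2 fold change of each MCM gene (points, with 95% intervals) in the 4 comparisons of 2 groups, filled red where the edgeR adjusted p over all genes is under 0.05. MCM6 is the gene left of 0 in the second panel, at −0.93, while in the fourth panel 8 genes are filled, from 0.75 for MCM7 to 1.73 for MCM10.

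MCM10 (ENSG00000065328, chr10:13161554-13211104, plus strand), the activator that is no part of the ring, showed the lowest fold change of the 10. It was measured at 15.8, 15.4, 17.6 and 13.3 CPM in NAA40-KD (−dox) and at 44.6, 39.99, 44.8 and 56.2 CPM in SCR (−dox). The groups were far apart, with the highest knockdown library below the lowest SCR library. MCM10 fell 2.98-fold (log2 fold change −1.57, SE 0.17, edgeR adjusted p = 0.00266), a fold change as low or lower being found in 0.432% of all genes, and by 1.52 on the log2 scale without replicate 4. In +dox it stood at 52.3, 48.8, 54.9 and 50.3 CPM against 43.0, 45.3, 50.1 and 45.2 CPM (log2 fold change 0.17, SE 0.09, edgeR adjusted p = 0.191).

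MCMBP (ENSG00000197771, chr10:119829404-119892556, minus strand) gave 107, 104, 122 and 70.2 CPM in NAA40-KD (−dox) and 161, 149, 148 and 199.9 CPM in SCR (−dox). Although the groups did not overlap, the log2 fold change of −0.70 (SE 0.19) had an edgeR adjusted p of 0.0590, and without replicate 4 MCMBP fell by 0.57 (edgeR adjusted p = 0.000785). In +dox it rose, from 162, 139, 163 and 146 CPM in SCR to 179, 188, 214 and 202 CPM in the knockdown, by 0.36 on the log2 scale (SE 0.09, edgeR adjusted p = 0.00638).

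The recombination helicase genes came next. MCM8 (ENSG00000125885, chr20:5950652-5998977, plus strand) was at 31.4, 29.1, 29.3 and 15.2 CPM in NAA40-KD (−dox) and at 43.5, 35.5, 42.7 and 52.4 CPM in SCR (−dox), with no overlap. Its log2 fold change was −0.73 (SE 0.23, edgeR adjusted p = 0.0969), and without replicate 4, the lowest library, it fell by 0.55 (edgeR adjusted p = 0.00241). MCM9 (ENSG00000111877, chr6:118813442-118935162, minus strand), the partner of MCM8, was at 17.3, 18.8, 19.5 and 12.5 CPM in NAA40-KD (−dox) and at 18.8, 14.5, 14.8 and 17.7 CPM in SCR (−dox). These groups overlapped, and the log2 fold change of 0.05 had a 95% interval of −0.35 to 0.46 (0.17 without replicate 4, edgeR adjusted p = 0.309).

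Among +dox libraries both genes rose. MCM8 stood at 53.6, 56.1, 54.2 and 51.5 CPM in the knockdown and at 41.2, 40.7, 37.9 and 33.3 CPM in SCR, a rise of 0.49 on the log2 scale (SE 0.09, edgeR adjusted p = 0.00110). MCM9 stood at 21.3, 22.05, 23.9 and 23.6 CPM against 15.97, 15.3, 14.5 and 14.2 CPM, a rise of 0.60 (SE 0.10, edgeR adjusted p = 0.000419), the highest of the 10. In both genes the groups did not overlap, as in 5 of the 10 genes with the knockdown higher, against 13.2% of all genes.

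Over the whole family, the +dox comparison thus held 5 genes that rose (MCM4, MCM5, MCM8, MCM9 and MCMBP) and 1 that fell (MCM6). Of all 13869 genes tested there, 10.9% rose and 13.7% fell, so calls were common in this comparison. None of the 10 passed an absolute log2 fold change of 1, which 2.15% of all genes did with an adjusted p under 0.05. The median log2 fold change was 0.27 for the 10 genes and −0.00 for all genes. When all 16 libraries shared 1 estimate of the spread, MCM9 and MCM6 were the 2 genes still called, against 6.71% of all genes.

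Comparison of the SCR groups asked whether the doxycycline label went with the MCM genes in cells without the NAA40 hairpin. The edgeR test called 0 of the 10 and 0 of all 13882 genes, as did DESeq2 and limma-voom, and an unadjusted p under 0.05 was found for 0 of the 10 and for 271 of all genes. All 10 log2 fold changes of +dox against −dox were below 0, from −0.26 for MCM4 (95% interval −0.56 to 0.04) to −0.00 for MCM7, and all 10 groups overlapped, where 1.58% of all genes did not. The lowest unadjusted p of a member was 0.0848, for MCM4. For MCM2, MCM5, MCM7 and MCM10 the direction does not hold without the fourth SCR (−dox) library. In that library all 10 genes stood above the mean of replicates 1 to 3, by 0.14 (MCM9) to 0.54 (MCM2) on the log2 scale. Without it, the values were 0.05 for MCM2, 0.04 for MCM5, 0.08 for MCM7 and 0.09 for MCM10. MCM3 (−0.01), MCM4 (−0.11), MCM6 (−0.06) and MCM8 (−0.08) stayed below 0, and MCM9 did so whichever library was left out.

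Between the 2 NAA40-KD groups, which share the cell line and differ in the label and in the NAA40 level, 8 genes were higher in +dox than in −dox, against 4.71% of the 13844 genes tested, and 5 of them by more than 1 on the log2 scale, against 1.59% of all genes. MCM10 rose 3.31-fold (log2 fold change 1.73, SE 0.13, adjusted p = 0.00120 by edgeR). MCM3 and MCM4 both rose by 1.49 (SE 0.15 and 0.12). MCM2, MCM8, MCM5, MCMBP and MCM7 rose by 1.11, 1.04, 0.99, 0.96 and 0.75, with edgeR adjusted p between 0.0122 and 0.0490. MCM9 had a log2 fold change of 0.41 (SE 0.16, edgeR adjusted p = 0.131) and MCM6 the only value below 0. For 9 of the 10 genes the groups did not overlap, against 15.5% of all genes with every +dox library higher, and MCM6 was the gene that overlapped. These calls were sensitive to single libraries, with 3 to 5 of the genes called when any 1 of the other 7 libraries was left out, and fewest, 3, without the third or the fourth NAA40-KD (+dox) library. Leaving out the fourth NAA40-KD (−dox) library gave the 10, of which 9 rose, against 25.8% of all genes that then rose, and MCM6 fell, against 26.6% that fell. The rises then ran from 0.29 for MCM9 to 1.66 for MCM10.

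The test of the difference between the −dox and the +dox comparison, made on all 16 libraries, was past the threshold for 8 genes, each lower in the −dox comparison, against 4.31% of 14392 genes, and 7 of them by more than 1 on the log2 scale, against 1.87%. Without the fourth NAA40-KD (−dox) library it was past the threshold for 9, all but MCM6 (0.22), against 11.9% of all genes, at −0.42 for MCM9 to −1.74 for MCM3. MCM4 and MCM10 both differed by −1.75 on the log2 scale (SE 0.20 and 0.18) and MCM3 by −1.63 (SE 0.20). The differences of MCM2, MCM8, MCM5, MCMBP and MCM7 were −1.23, −1.22, −1.09, −1.07 and −0.76. MCM6, at 0.09, and MCM9, at −0.55 (SE 0.20, edgeR adjusted p = 0.0920), did not pass. The comparisons set side by side here share the NAA40-KD (−dox) libraries, so that they are not independent.

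In the fourth NAA40-KD (−dox) library the genes above and below the other replicates differed in base composition. Against the mean of replicates 1 to 3 it held more MCM5 (1.10 on the log2 scale), MCM2 (1.02), MCM7 (0.75) and MCM3 (0.43), whose longest transcripts have 51.6% to 58.1% GC. MCM8 (−0.98), MCMBP (−0.66), MCM6 (−0.58), MCM9 (−0.57) and MCM10 (−0.29), with 37.6% to 43.3% GC, were lower than in all 3 other replicates. MCM4, at 48.5% GC, was within them (−0.02). Over all genes the median deviation of this library rose from −1.54 at 30% to 35% GC to 1.41 at 65% to 70% GC. The summed epithelial and fibroblast markers were also highest in this library, at 10478 and 186 CPM by library size alone, carried by KRT8, KRT18, KRT19 and COL1A1, while EPCAM, at 257 CPM, was at its lowest of the 16 libraries and CDH1, at 143 CPM, and PDGFRB, at 0.78 CPM, were not at their highest. Their part in the MCM values was not tested. An offset for GC content in each library, chosen after seeing the data, gave 9 of 10 genes lower in −dox, all but MCM9, against 18.2% of all genes.

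**Figure D3:**
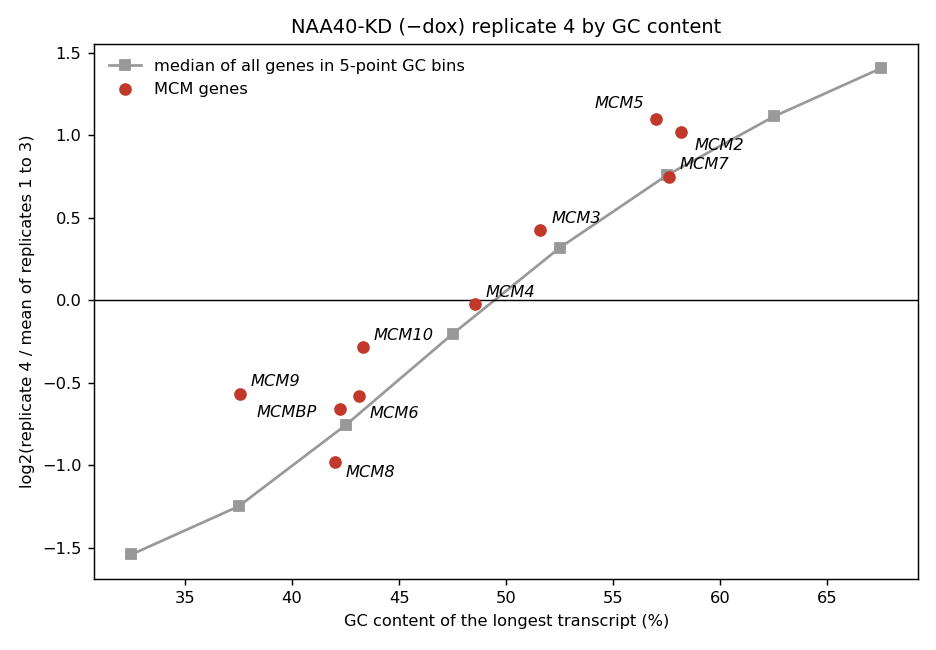
log2 ratio of NAA40-KD (−dox) replicate 4 to the mean of replicates 1 to 3 for each MCM gene (red points), against the GC content of its longest transcript in percent, with the median of all genes in GC bins of 5 points (grey squares and line). The genes below 48% GC lie under 0, down to MCM8 at −0.98, and those above 50% lie over 0, up to MCM5 at 1.10. All genes but MCM7 and MCM8 lie above the grey squares of their bins, which are at −1.25 for MCM9 and −0.76 for MCM10.

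Per length, the hexamer transcripts were not equal. Divided by the union of exons in GENCODE 29, levels in SCR (−dox) were 63.9 CPM per kb for MCM7, 51.4 for MCM3, 37.6 for MCM6, 33.5 for MCM4, 27.9 for MCM2, 27.4 for MCMBP, 15.6 for MCM5, 8.51 for MCM10, 5.66 for MCM8 and 1.32 for MCM9. Neighbours in this order overlapped between libraries from MCM7 down to MCMBP, and did not overlap from MCMBP on. In NAA40-KD (+dox) the order was MCM7, MCM3, MCM4, MCMBP, MCM2, MCM5, MCM6, MCM10, MCM8 and MCM9, with MCM6 at 17.1 CPM per kb, beside MCM5 at 18.6, which it overlapped. In NAA40-KD (−dox) MCM6 was second at 20.9 CPM per kb, overlapping MCM3 at 19.1, and MCM7 led at 39.2. Without replicate 4 these were 22.8 for MCM6, 17.6 for MCM3 and 33.5 for MCM7, with MCMBP next after MCM6 at 18.5, and MCM6 overlapped neither neighbour. Lengths taken from the longest transcript instead put MCM4 before MCM6 in SCR (−dox), so the middle of the order depends on the gene model. By these lengths MCMBP, at 24.2 CPM per kb, stood before MCM6, at 23.1, in NAA40-KD (−dox), with overlap. In NAA40-KD (+dox) MCM6, at 18.9, then did not overlap MCM5, at 29.6.

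Shares within the hexamer show the same exception. MCM6 made up 16.3% ± 1.02 (SD, n = 4) of the summed CPM per kb of MCM2 to MCM7 in SCR (−dox) and 15.5% ± 1.09 in SCR (+dox), but 7.74% ± 0.40 in NAA40-KD (+dox), where its libraries ran from 7.28% to 8.15%. In NAA40-KD (−dox) the share was 19.0% ± 5.83, from 10.5% in replicate 4 to 23.7%, and 21.8% ± 1.66 (n = 3) without it. MCM3 took 16.7% ± 0.77 in NAA40-KD (−dox), and 16.8% ± 0.88 without replicate 4, below the 21.4% to 25.2% of the other 12 libraries. These are shares of transcripts and say nothing of protein.

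**Figure D4:**
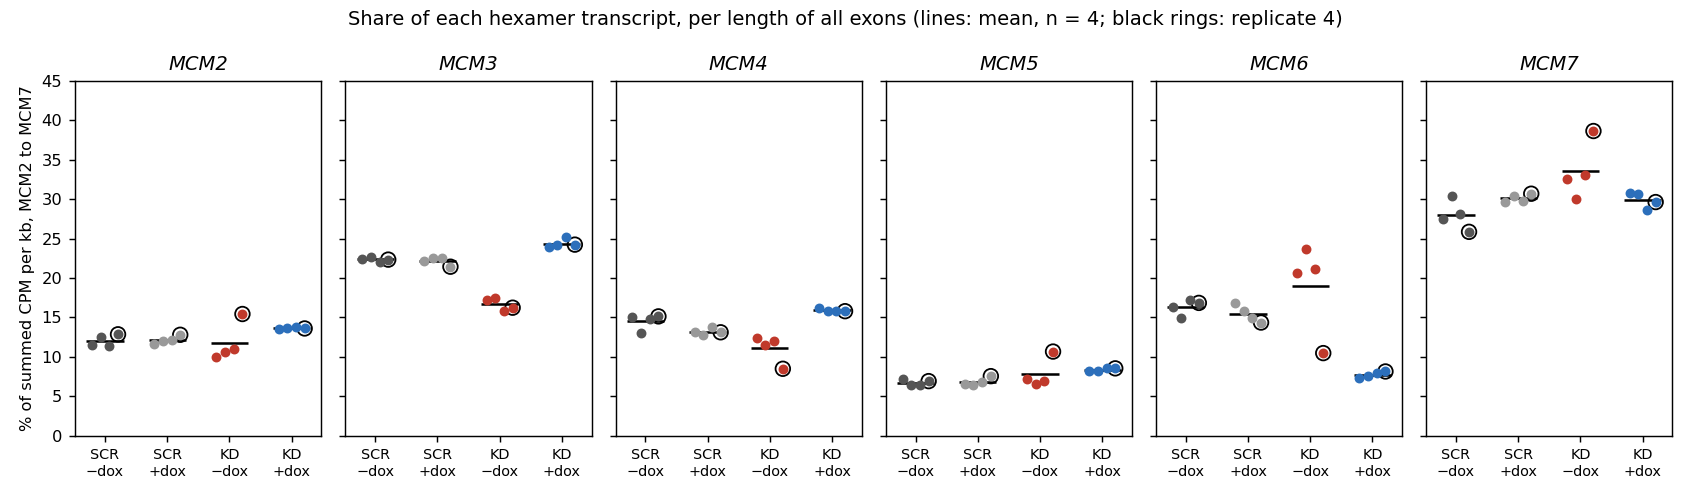
Share of each hexamer transcript, in percent of the summed CPM per kb (union of exons) of MCM2 to MCM7, in each library (points) by group, with lines for the mean of 4 libraries and black rings for replicate 4. MCM6 is at 7.28% to 8.15% in NAA40-KD (+dox), below all other groups, and MCM3 is at 15.8% to 17.5% in NAA40-KD (−dox).

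Genes that start next to MCM genes on the opposite strand were measured as well. PRKDC, whose start lies 2 bp from that of MCM4 and which encodes a kinase of DNA end joining, fell in −dox by 0.64 (SE 0.15, edgeR adjusted p = 0.0334) where MCM4 fell by 1.41, and by 0.55 without the fourth knockdown library. In +dox its log2 fold change was 0.25 (edgeR adjusted p = 0.0707). SEC23IP, 155 bp from MCMBP, had a log2 fold change of 0.21 in −dox (edgeR adjusted p = 0.524, and a rise of 0.35 without that library, edgeR adjusted p = 0.00531) and rose by 0.27 in +dox (edgeR adjusted p = 0.0250). TRMT6, 94 bp from MCM8 and a subunit of a tRNA methyltransferase, had −0.03 in −dox (edgeR adjusted p = 0.949, and 0.10 without that library) and rose by 0.36 in +dox (edgeR adjusted p = 0.0218).

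TPRA1 overlaps MCM2, AP4M1 overlaps MCM7 and ASF1A overlaps MCM9, each on the opposite strand and in exons. TPRA1 and AP4M1 also start near these MCM genes, 44 bp from the start of MCM2 and 391 bp from that of MCM7. Whether reads were counted by strand is not given in the sources used here, so reads of these pairs may not be told apart. In −dox the log2 fold changes were 0.44 for TPRA1, −0.01 for AP4M1 and −0.80 for ASF1A, with edgeR adjusted p of 0.375, 0.993 and 0.118. Without the fourth knockdown library they were 0.05, −0.28 and −0.58, and ASF1A fell (edgeR adjusted p = 0.00505). In +dox TPRA1 rose by 0.30 (edgeR adjusted p = 0.0414), AP4M1 fell by 0.35 (edgeR adjusted p = 0.0467) and ASF1A had −0.38 (edgeR adjusted p = 0.0502).

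The partners of the MCM proteins were read from 7 lists. In origin licensing, the step that loads the hexamer, 3 of 10 genes fell in −dox and 0 rose, with CDC6, which recruits the hexamer with ORC, at −1.10, and the origin recognition subunits ORC6 at −1.04 and ORC1 at −0.99. In helicase activation and fork protection 10 of 20 fell, and all 20 fold changes were below 0 (median −0.84), with the GINS subunits GINS3 and GINS4 at −1.69 and −1.47 and the cyclin CCNE2 at −1.59. Of the DNA synthesis list, 8 of 24 fell, among them the DNA polymerase alpha genes POLA1 (−1.47) and POLA2 (−1.39) and the polymerase epsilon subunit POLE2 (−1.29). Histone chaperones at the fork fell in 4 of 6, with MMS22L at −1.35, CHAF1B at −1.11 and ASF1B at −1.11. These shares stand beside the 3.54% of all genes that fell and a median of 0.04 over all genes. The lists were chosen with earlier results of these data known, so the shares are not an independent test.

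The unloading factors, which take the hexamer off DNA after replication, had 0 of 8 genes past the edgeR threshold in −dox (2 by DESeq2, and 2 at an unadjusted p under 0.05) and a median of −0.26. Of the E2F and retinoblastoma families 5 of 13 fell, with the activator genes E2F2 and E2F1 at −1.35 and −1.08 and the pocket protein RBL1 at −1.09, and their median was −0.37. The mitosis list had 8 of 25 lower and a median of −0.72, with BIRC5, which encodes survivin, at −1.17, the proliferation marker MKI67 at −1.03 and the kinase AURKA at −0.93. Without the fourth NAA40-KD (−dox) library the genes that fell numbered 5 of 10 in licensing, 18 of 20 in activation, 19 of 24 in DNA synthesis, 3 of 8 in unloading, 6 of 6 chaperones, 6 of 13 E2F and retinoblastoma genes and 22 of 25 mitotic genes, against 19.4% of all genes. Left out 1 at a time, other libraries cut the counts to as few as 6 activation genes, 3 DNA synthesis genes, 1 chaperone, 1 E2F or retinoblastoma gene and 1 mitotic gene, each of these without the first SCR (−dox) library. The 18 genes named here were picked for −dox groups that did not overlap, which fixed their direction when 1 of these libraries was left out. Without the fourth NAA40-KD (−dox) library their log2 fold changes ran from −0.83 (AURKA) to −1.67 (GINS3).

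In +dox the same lists held 3 of 10 licensing genes that rose, 5 of 20 activation genes, 5 of 24 DNA synthesis genes, 0 of 8 unloading genes (1 at an unadjusted p under 0.05, and 1 by DESeq2), 3 of 13 E2F and retinoblastoma genes and 3 of 6 chaperones (the fourth that changed, ASF1B, fell by 0.35), against 10.9% of all genes that rose. ORC6 rose by 0.33, POLE2 by 0.41 and MMS22L by 0.57, while CDC6 (0.05), GINS3 (−0.12) and POLA1 (0.10) did not pass. Of the mitotic genes 6 of 25 fell and 0 rose, against 13.7% of all genes that fell, among them BIRC5 at −0.94. Left-out libraries moved the numbers called in +dox to between 0 and 4 in licensing, 3 and 7 in activation, 2 and 6 in DNA synthesis, 1 and 3 in the E2F and retinoblastoma families, 2 and 5 among chaperones and 3 and 8 in mitosis. In SCR (+dox) against SCR (−dox) 0 genes of the 7 lists were called by edgeR, and 0 of the 106 genes had an unadjusted p under 0.05.

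The genes whose profile over the 16 libraries lay nearest to the mean of MCM2 to MCM7 were found among 11121 genes with a mean of at least 5 CPM, by the root-mean-square distance of centred log2 CPM. They were FEN1, the flap endonuclease of lagging-strand synthesis (0.117), CDCA5, the cohesion factor sororin (0.121), KHSRP, an RNA-binding protein (0.125), CHAF1A, a chromatin assembly subunit (0.139), KREMEN1, a Wnt pathway receptor (0.150), TCF7, a Wnt pathway transcription factor (0.153), RFC2, a subunit of the clamp loader (0.153), and LMNB1, lamin B1 (0.154). The median distance of all ranked genes was 0.532. MCM7 lay at 0.142, MCM2 at 0.162, MCM3 at 0.202, MCM5 at 0.209 and MCM4 at 0.223. MCM6, at 0.534, lay about as far from the mean of its own hexamer as the median gene, as did MCM9 at 0.517. Each of MCM2 to MCM7 is part of that mean, which brings it nearer. Their distances are therefore not measured like those of the other genes. Without the fourth NAA40-KD (−dox) library, 3 of these 8 genes (FEN1, CDCA5 and KHSRP) were again among the nearest 8, MCM6 lay at 0.543 and MCM9 at 0.533, and the median was 0.496, over 15 libraries.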

How the data were processed

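RNA of 16 HCT116 libraries in 4 groups of 4 was sequenced by the authors, who aligned reads with STAR and counted them with featureCounts. The deposited values are raw counts of reads per gene, neither normalized nor filtered by the authors. The methods name the mouse build mm10 and the submitters' processing notes list hg38 and GRCm38, while 33937 of 33937 identifiers are human Ensembl identifiers, of which 33811 were found in GENCODE 29 (GRCh38). The number of count columns without a sample was 0, and totals were 11065606 to 13855486 counts.

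Counts were tested with edgeR 4.0.16 in R 4.3.3 (TMM, robust quasi-likelihood F test, two-sided, CPM above 1 in at least 4 libraries of the fit, Benjamini-Hochberg over all genes). The threshold was an adjusted p of 0.05, with an absolute log2 fold change of 1 as a second rule. Each comparison was fitted on its own 8 libraries, and the difference of differences on all 16. Standard errors were taken as the absolute log2 fold change over the root of F, with 95% intervals from the t quantile. The fit was tested on simulated counts. NAA40 was compared with an exact permutation test over 70 arrangements of its CPM.

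Named are the 10 MCM genes, NAA40, up to 3 genes a list with the largest change in −dox past the threshold whose groups did not overlap, neighbours on the opposite strand within 1000 bp or overlapping, and the 8 genes nearest in profile. The members and lists were chosen with earlier results of these data known. Alternatives were DESeq2 1.42.0, limma-voom 3.58.1, median-ratio size factors, library size only, no filter, all 16 libraries, a replicate block and leaving out each library. An offset for GC content and leaving out both −dox libraries numbered 4 were chosen after seeing the data, as were the values of list genes, neighbours, shares, order and profile without the fourth NAA40-KD (−dox) library. Pairs of libraries within a group differed by more than sampling noise (chi-square per degree of freedom from 1.74 to 140). Pairs with the fourth NAA40-KD (−dox) library gave 128 to 140, and all other pairs at most 40.5. The spread was uneven in +dox, at 1.74 to 4.44 in NAA40-KD and 8.61 to 24.0 in SCR. Columns of the authors' own comparisons were not used.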

Additional observations from a re-analysis of the deposited data

Results flagged for a closer look

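In groups of 4 libraries, 4 of 44 held a library far from the other 3 by Dixon's criterion, where chance gives about 1 in 20. All 4 were the fourth library labelled NAA40-KD (−dox), with 110.2 CPM of MCM2, 86.3 CPM of MCM3, 114 CPM of MCM5 and 15.2 CPM of MCM8. The first 3 lie above their replicates and MCM8 below. The line difference changed between the doxycycline labels for 8 genes by the edgeR test on all 16 libraries (NAA40-KD minus SCR in −dox, less the same in +dox), at −1.23 for MCM2, −1.63 for MCM3, −1.75 for MCM4, −1.09 for MCM5, −0.76 for MCM7, −1.22 for MCM8, −1.75 for MCM10 and −1.07 for MCMBP on the log2 scale, with adjusted p from 3.80e-05 to 0.0473. NAA40 itself was low in NAA40-KD (−dox) and not in NAA40-KD (+dox).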

How the results depend on the processing

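Over the libraries left out 1 at a time, the number of MCM genes past the threshold ran from 3 to 9 in −dox (4 with all libraries), from 4 to 8 in +dox (6), from 3 to 10 between the NAA40-KD groups (8) and from 6 to 9 for the difference of differences (8), and was 0 throughout between the SCR groups. With the fold rule as well it ran from 3 to 5 in −dox, 3 to 5 between the NAA40-KD groups and 5 to 7 for the difference of differences. The counts over all genes ran from 226 to 5021 (892) and, with the fold rule, 182 to 587 (483) in −dox, 380 to 7183 (1414) and 235 to 504 (552) between the NAA40-KD groups, and 820 to 3467 (1327) for the difference of differences, the counts without the fold rule each highest without the fourth NAA40-KD (−dox) library, and 226 without the fourth SCR (−dox) library. Leaving out both −dox libraries numbered 4 gave 9 MCM genes and 5006 of all genes in −dox, and 3370 of all genes for the difference of differences. DESeq2 called 8 MCM genes and 1914 of all genes in −dox, and 2526 of all genes between the NAA40-KD groups. With 1 spread over all 16 libraries 9 MCM genes, 2951 and (fold rule) 772 of all genes were called in −dox, 2 MCM genes and 966 of all genes in +dox, and 3210 of all genes between the NAA40-KD groups. Without a filter the fold rule called 739 of all genes in −dox, 504 in +dox and 1 between the SCR groups, also 1 without the fold rule. The GC offset called 9 MCM genes and 5000 of all genes in −dox, 6103 of all genes between the NAA40-KD groups and 4171 for the difference of differences. The causes of these shifts were not tested.

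A replicate block gave 3 MCM genes in −dox, 7 in +dox, 0 between the SCR groups, 7 between the NAA40-KD groups and 8 for the difference of differences, and 82 of all genes in −dox by either rule and 777 between the NAA40-KD groups. Same-numbered libraries correlated by −0.416 to 0.237, not above 0.1 in every pair, and the main tests used no pairing. Between the NAA40-KD groups these correlations were 0.034 to 0.237. Whether libraries of the same number share a culture or batch was not tested.

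Directions turned for values near 0. MCM9 in −dox ran from −0.0099 to 0.17 over the left-out libraries (lowest without NAA40-KD (−dox) replicate 3), and MCM7 in +dox from −0.011 to 0.093 (lowest without SCR (+dox) replicate 2). Between the SCR groups MCM7 was 0.0061 without a filter and 0.0016 with all 16 libraries, and MCM10 was 0.0052 with the GC offset. There the left-out libraries gave −0.21 to 0.048 for MCM2, −0.19 to 0.037 for MCM5, −0.070 to 0.077 for MCM7 and −0.092 to 0.094 for MCM10, each highest without SCR (−dox) replicate 4. NAA40 kept its direction with library size only. MCM9 and MCM10 had the fewest counts in NAA40-KD (−dox), at 152 to 267 and 162 to 241 per library. The SE of their log2 fold changes in −dox were 0.18 and 0.17, while the largest of an MCM gene was 0.29, for MCM5.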
